A study of Rattus norvegicus with 8 samples.

Results

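WTTS-Seq, or whole transcriptome termini site sequencing, captures polyadenylated RNA at its 3′ end, and each read counts 1 transcript end at 1 alternative polyadenylation (APA) site. The libraries came from the hypothalamus of adult male Long-Evans rats, and each was taken here as 1 rat. They comprised 4 rats placed for 10 min in a chamber with vaporized cannabis plant matter and 4 air-treated controls placed in a like chamber with an empty vaporizer. Tissue was collected 1 hr after exposure, and the methods state for the cannabis-exposed rats, which had fed freely until then, that food was taken away in between.

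The genes described here make, load, clear or degrade the transmitters GABA and glutamate. They were listed by name as 8 genes, and a gene entered when its symbol equalled the symbol of a row in the files. Of the 8, 7 had rows (Gad1, Gad2, Slc32a1, Slc6a11, Abat, Slc17a6 and Slc17a8), with 35 APA sites out of 98356 and among 18003 gene symbols. No row carried the symbol Slc17a7, the vesicular glutamate transporter typical of cortical neurons, so this gene was dropped and has no value. The 7 genes held 10988 of the 20734916 reads on sites, or 0.053%.

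GABA is made from glutamate by the glutamic acid decarboxylases encoded by Gad1 and Gad2, and is packed into synaptic vesicles by the transporter encoded by Slc32a1. Glutamate is packed by the transporters encoded by the Slc17a6, Slc17a7 and Slc17a8 genes, of which Slc17a6 is the usual form in hypothalamic neurons. Released GABA is taken back by transporters, among them the mainly astrocytic one of Slc6a11, and is broken down by GABA transaminase, the product of Abat. Both transmitters act in the hypothalamic circuits that set feeding, and cannabinoid receptors on nerve terminals restrain the release of both.

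Values are normalized counts, read counts per site scaled by the size factor of their library, and a gene total is the sum over all sites with its symbol. A read was worth from 0.664 to 1.99 normalized counts, and 3 reads, taken as the smallest level to read anything from, corresponded to between 1.99 and 5.96. Libraries held from 1159811 to 3706778 reads, with the fewest in air control replicate 4 and the next fewest in cannabis replicate 1. Over the 3654 gene totals with a mean of at least 100, each had the other as its closest library (Pearson correlation across genes 0.931), although they belong to different groups. Closest pairs across groups were also air control replicate 2 with cannabis replicate 3 (0.959) and air control replicate 3 with cannabis replicate 2 (0.949). Mean correlations with all other libraries were lowest in air control replicate 4 and cannabis replicate 1, at 0.841 and 0.863. Those of cannabis replicates 2 and 5 were close to the latter, at 0.869 and 0.871. The tissue label was met by its markers, as all 8 listed hypothalamic genes had rows, and their summed level ran from 2659 to 4999 in air controls and from 6694 to 8817 in cannabis-exposed rats, with every cannabis library above every control. That separation rested on Avp, since without it the summed level of the other 7 overlapped, from 1203 to 1998 against 1900.0 to 3438. Avp had 1952 ± 996 and 4934 ± 1383 (SD, n = 4, limma, unadjusted P = 0.000924, adjusted P = 0.999). Among the 8 genes, 7 had a higher and 1, Sim1, a lower mean log2 level after cannabis. In limma 3 had an unadjusted P under 0.05, against 2.41% of all gene totals. Besides Avp these were Oxt (log2 difference 1.05, limma, unadjusted P = 0.00297) and Nkx2-1 (0.86, limma, unadjusted P = 0.0468), both with an adjusted P of 0.999. Of 4 cortical and hippocampal markers, Neurod6, Tbr1 and Emx1 had no rows. The summed neuronal markers overlapped between the groups, from 1430 to 2324 against 1234 to 2193, as did astrocyte markers, from 4534 to 5822 against 5606 to 6880. All 5 neuronal markers had a lower mean log2 level after cannabis, with a median difference of -0.36 against 0.05 over all gene totals. In limma 0 of these 5 had an unadjusted P under 0.05, and Eno2 among them averaged only 2.66 normalized counts. Of the 5 astrocyte markers 3 were higher and 2 lower. The part of cell composition in any value below was not tested, and in bulk tissue fewer cells of a type and less RNA per cell cannot be told apart.

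For none of the 7 genes did the difference between cannabis-exposed rats and air-treated controls pass a test. In limma on log2(normalized count + 1) over all 18003 gene totals, 0 of the 7 had an adjusted P under 0.1 and 0 had an unadjusted P under 0.05, and edgeR and DESeq2 on the recovered reads also gave 0 at an unadjusted P under 0.05. Across all gene totals the shares called were 0.00555% and 2.41%. The groups overlapped at every one of the 7 totals, against 1.98% of all gene totals without overlap. The log2 differences, cannabis minus air, ran from -0.18 to 0.60 with a median of 0.14, and the median over all gene totals was 0.05. The smallest unadjusted P was 0.226, and all 7 adjusted P values were 0.999.

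**Figure D1:**
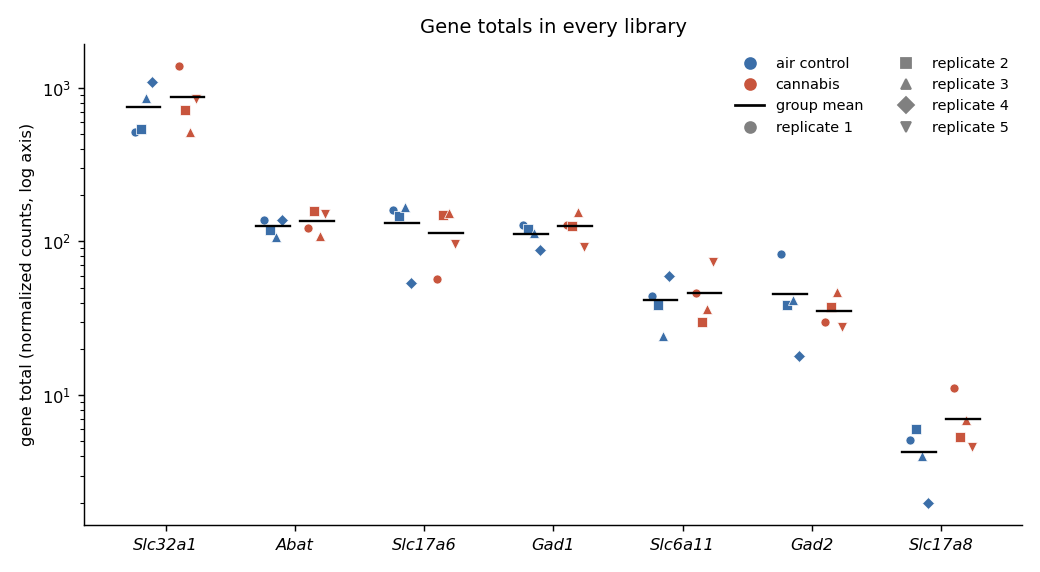
Gene totals of the 7 genes in normalized counts on a log axis, with 1 point per library (blue for air control, red for cannabis, shapes for replicate numbers) and a black line at each group mean. The groups overlap at every gene, and Slc32a1 lies above the other 6 genes in every library.

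The order of the genes by level was led by the vesicular GABA transporter. By design each read marks 1 transcript end, so a longer transcript is not meant to count more often. A gene total, however, sums from 1 site (Slc32a1) to 11 sites (Abat), and a link with gene length was not tested. Whether ends of different genes are captured equally well was not tested, so the order is one of counts and not of transcript numbers. Slc32a1 was highest, with a mean of 808 normalized counts over the 8 libraries, rank 307 among the 18003 gene symbols, and 6.20 times the mean of the next gene. Abat, Slc17a6 and Gad1 followed with means of 130, 123 and 119, and neighbours in this order were not separable, since Abat exceeded Slc17a6 in 4 of 8 libraries and Slc17a6 exceeded Gad1 in 5 of 8. Slc6a11 and Gad2 were lower, at 43.9 and 40.4, with Slc6a11 the higher in 3 of 8 libraries. Slc17a8 was lowest, at 5.64, and was under Gad2 in 8 of 8. The order of the middle genes did not hold in every library, since in air control replicate 4 Slc6a11 (59.6) exceeded Slc17a6 (53.6).

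Slc32a1, the vesicular GABA transporter, had the most reads of the 7, 6796, all on 1 site. By its position in the study's site table, matched on symbol and on all 8 values, this site lies on the plus strand of Rnor_6.0 chromosome 3. It spans 155107785 to 155108208, in a cluster of read ends 424 bases wide. Its Cuffcompare class is o, a generic overlap with exons of the gene, which the paper counts as distal, its class for transcript ends. Air controls had 517, 535, 852 and 1096 normalized counts in replicates 1 to 4, and cannabis-exposed rats 1388, 721, 516 and 840 in replicates 1, 2, 3 and 5. Cannabis replicate 1 and air control replicate 4 were on top, and the lowest values of both groups were nearly equal. The means were 750 ± 277 and 866 ± 373 (SD, n = 4), and the log2 difference was 0.19 (95% interval -0.49 to 0.86, limma, adjusted P = 0.999). The exact permutation test, two-sided here and below, gave P = 0.743. Without cannabis replicate 1 the sign turned, to -0.07, and without that library and air control replicate 4 together, a choice made after the values were seen, the difference was 0.14.

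Gad1, the decarboxylase spread through the whole neuron, was the steadier of the GABA-synthesis genes. Its totals were 129, 120, 113 and 87.4 in air controls and 128, 127, 154 and 92.2 in cannabis-exposed rats. The highest library was only 1.77 times the lowest, and the extremes of the groups interleaved. Means of 112 ± 17.8 and 125 ± 25.6 (SD, n = 4) gave a log2 difference of 0.15 (95% interval -0.35 to 0.65, limma, adjusted P = 0.999).

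Gad2, the decarboxylase tied to synaptic vesicles, had fewer reads, from 9 to 114 per library, and spread more. Air controls had 83.3, 38.3, 41.6 and 17.9 normalized counts and cannabis-exposed rats 29.8, 37.2, 47.2 and 27.7. All 4 cannabis values lay inside the range of the controls, whose highest and lowest libraries differed 4.66-fold. The log2 difference of -0.18 (95% interval -1.04 to 0.68, limma, adjusted P = 0.999) turned to 0.18 without air control replicate 1 and was -0.55 without air control replicate 4. Part of the spread came from its site 4, counted by mean level, which had 27.0 normalized counts in air control replicate 1 and at most 3.94 in any other library. The ratio of Gad1 to Gad2 totals, given without a test, was 1.54 in air control replicate 1 and between 2.73 and 4.89 elsewhere.

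Slc17a6, the main vesicular glutamate transporter of the hypothalamus, varied across libraries of both groups. Air controls had 159, 146, 168 and 53.6 normalized counts and cannabis-exposed rats 57.1, 148, 154 and 96.8. Of the 8 libraries, 5 lay close together between 146 and 168, cannabis replicate 5 lay below them, and air control replicate 4 and cannabis replicate 1 were lowest, at about the same level. Means of 132 ± 52.8 and 114 ± 45.7 (SD, n = 4) gave a log2 difference of -0.18 (95% interval -1.02 to 0.66, limma, adjusted P = 0.999). This value ran from -0.57 without air control replicate 4 to 0.11 without cannabis replicate 1, so its sign rested on single libraries. With both of them left out, it was -0.27 (unadjusted P = 0.263 in limma).

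In the same 2 libraries Slc32a1 was highest, so the ratio of the vesicular transporters was furthest from that of the rest there. As a description, the ratio of Slc32a1 to Slc17a6 totals was 20.4 in air control replicate 4 and 24.3 in cannabis replicate 1. It was 3.24, 3.66 and 5.08 in the other air controls and 4.87, 3.36 and 8.68 in the other cannabis-exposed rats. The 2 extreme ratios came from opposite groups, and the remaining 6 overlapped. Gad1 showed no such split, at 87.4 and 128 in these libraries within a range of 87.4 to 154 over all 8. Which property of the 2 libraries goes with this ratio was not tested. Their depth was the lowest of the 8, at 1159811 and 1919709 reads, and air control replicate 2 had 1941129 reads and a ratio of 3.66. A link between depth and the ratio was not tested.

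**Figure D2:**
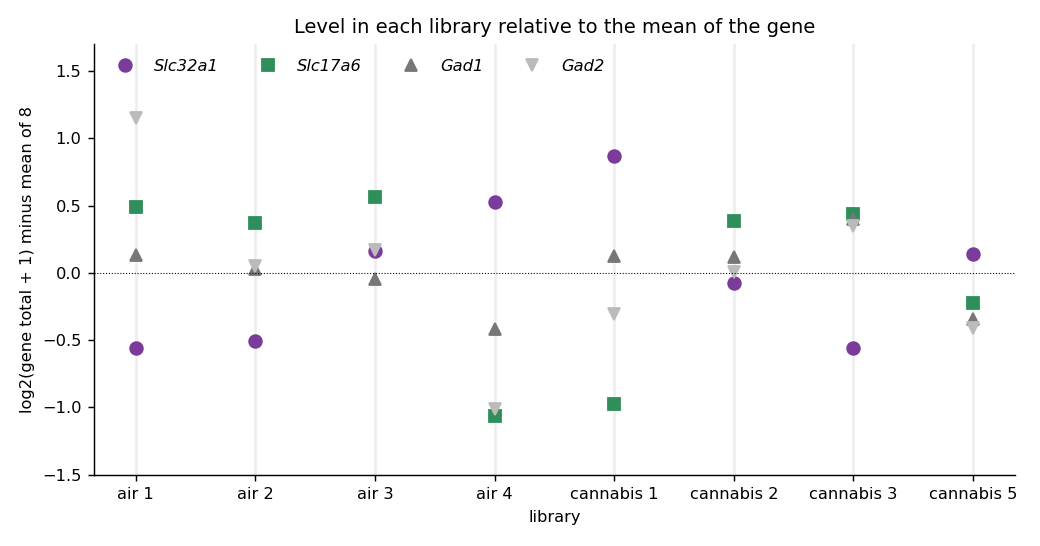
Log2(gene total + 1) of Slc32a1, Slc17a6, Gad1 and Gad2 in each library, minus the mean of that gene over the 8 libraries. Slc32a1 is highest and Slc17a6 lowest in air control replicate 4 and cannabis replicate 1, 1 library from each group.

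The genes whose levels followed these transporters most closely over the 8 libraries were picked by the root mean square difference of centred log2 values, among 3435 gene totals with a mean of at least 100 and a symbol that does not begin with LOC or RGD. For Slc32a1 they were Agap2 and Arhgap45, which encode GTPase-activating proteins, and Sec62, of the protein import machinery of the endoplasmic reticulum, with differences of 0.12, 0.14 and 0.15 against a median of 0.57 over all genes. Agap2, the closest, had 602 and 771 normalized counts in air control replicate 4 and cannabis replicate 1, and from 278 to 568 elsewhere. For Slc17a6 they were Uqcrfs1, of mitochondrial complex III, Clk1, a kinase of splicing factors, and Clta, a clathrin light chain, with differences of 0.12, 0.12 and 0.16 against a median of 0.67. Uqcrfs1 had 119 and 132 normalized counts in the same libraries and from 204 to 371 elsewhere. These 6 genes were chosen for their likeness over these same libraries, so their levels in them are a description.

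Slc17a8, the vesicular glutamate transporter of scattered neurons that often release a second transmitter, was near the limit of detection. It had 5.12, 5.99, 4.03 and 1.99 normalized counts in air controls and 11.2, 5.31, 6.89 and 4.61 in cannabis-exposed rats, from 49 reads in all and between 1 and 9 per library. Cannabis replicate 1 was highest and air control replicate 4, with a single read, lowest. The log2 difference was the largest of the 7, at 0.60 (95% interval -0.42 to 1.62, limma, adjusted P = 0.999, exact permutation P = 0.171). It fell to 0.13 when these 2 libraries were both left out.

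On the clearance side neither gene passed the test. Slc6a11, the GABA transporter found mainly on astrocytes, had totals of 43.9, 38.3, 24.2 and 59.6 in air controls and 45.9, 29.9, 36.4 and 73.0 in cannabis-exposed rats. The highest libraries were air control replicate 4 and cannabis replicate 5, and the difference of 0.14 on the log2 scale (95% interval -0.60 to 0.89, limma, adjusted P = 0.999) turned to -0.10 without cannabis replicate 5. Abat had the narrowest spread of the 7, from 107 to 159 over the 8 libraries. Its totals were 138, 119, 107 and 137 in air controls and 123, 159, 108 and 151 in cannabis-exposed rats, with a log2 difference of 0.10 (95% interval -0.36 to 0.57, limma, adjusted P = 0.999).

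**Figure D3:**
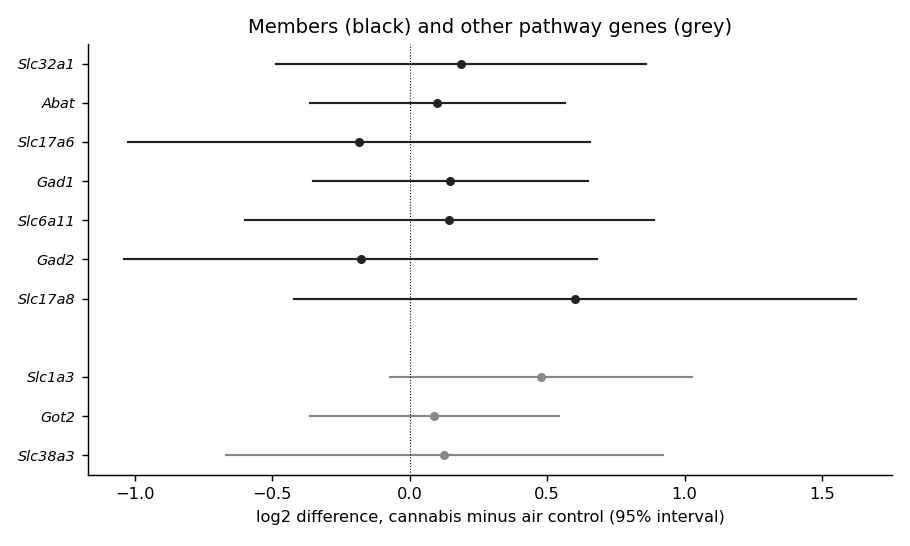
Log2 difference in gene total, cannabis minus air control, from limma with its 95% interval, for the 7 genes (black) and 3 abundant other genes of the pathway (grey), each set in order of mean level. Every interval contains 0, and the widest interval among the 7 genes is that of Slc17a8, the gene with the fewest reads.

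The other genes of GABA and glutamate handling were taken from a list of 25 enzymes and transporters, of which 24 had rows (Pdxk had none). In the gene-total fit 0 of the 24 had an adjusted P under 0.1 and 0 an unadjusted P under 0.05 in limma, and edgeR and DESeq2 gave 0 at the latter threshold as well. Of the 24, 16 had a higher and 8 a lower mean log2 level in cannabis-exposed rats, with a median difference of 0.14. Over all gene totals 10153 of 18003 were higher, with a median of 0.05, and 2.41% had an unadjusted P under 0.05. Slc1a3, the glial glutamate transporter, was the most abundant and had the smallest P of the list. Its mean was 1173 ± 364 normalized counts in air controls against 1627 ± 423 after cannabis (SD, n = 4), a log2 difference of 0.48 (95% interval -0.07 to 1.03, limma, unadjusted P = 0.0832, adjusted P = 0.999). Without air control replicate 3 the log2 difference of Slc1a3 was 0.67 (limma, unadjusted P = 0.0183), and without cannabis replicate 3 it was 0.66 (limma, unadjusted P = 0.0216). These fits leave out its highest control (1704) and its lowest cannabis library (1078), and neither gave an adjusted P under 0.1. With any other single library left out, the unadjusted P of Slc1a3 was not under 0.05.

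Among the next by level were Got2, the mitochondrial aspartate aminotransferase, and Slc38a3, an astrocytic glutamine transporter. Got2 had 1225 ± 227 normalized counts in air controls against 1307 ± 260 after cannabis (SD, n = 4), a log2 difference of 0.09 (limma, unadjusted P = 0.675). Slc38a3 had 908 normalized counts in air control replicate 4 and 897 in cannabis replicate 1, and between 321 and 485 in the other 6, so it was high in the same libraries as Slc32a1. Its group means of 478 and 512 lay close together, with a log2 difference of 0.13 (95% interval -0.67 to 0.92).

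At single APA sites the reads of the 7 genes were unevenly shared. The most used site held 85.0% of the reads of Gad1, 92.0% of Slc17a6, 61.8% of Abat, 54.8% of Slc6a11, 53.1% of Slc17a8 and 47.2% of Gad2. Only 8 of the 35 sites had a mean of at least 10 normalized counts, 29 had fewer than 100 reads over all libraries, and 15 had 0 reads in at least 1 library. Sites are numbered here by mean level within their gene. Positions and classes of sites other than that of Slc32a1 were not used here, so a gene total can include intronic or antisense sites that carry the symbol.

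The same comparison was then made site by site. In the limma fit over all 98356 sites, 0 of the 35 had an adjusted P under 0.1 and 1 had an unadjusted P under 0.05, against 0.00102% and 3.03% of all sites. The differences were positive at 18 sites and negative at 17, with a median of 0.06 on the log2 scale and 0.01 over all sites. At 1 of the 35 the groups did not overlap, against 2% of all sites.

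At the first site of each gene the groups overlapped. The first site of Slc17a6 averaged 122 ± 47.8 normalized counts in air controls against 105 ± 43.3 after cannabis (SD, n = 4), again with air control replicate 4 and cannabis replicate 1 lowest at 51.6 and 55.9. The first site of Gad1 had 98.1 ± 17.0 and 104 ± 21.6, with a log2 difference of 0.08, and that of Slc6a11 21.1 ± 8.72 and 27.7 ± 13.9, with 0.35. The first site of Gad2 ranged from 1.99 in air control replicate 4 to 35.8 in air control replicate 1, and from 3.73 to 28.5 in cannabis-exposed rats, with a log2 difference of -0.05. It was thus lowest in the same 2 libraries as Slc17a6. There, however, it was under the worth of 3 reads in air control replicate 4 (5.96) and equal to it in cannabis replicate 1. The second site of Gad2 was highest in air control replicate 4, at 11.9, and had 7.45 in cannabis replicate 1.

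**Figure D4:**
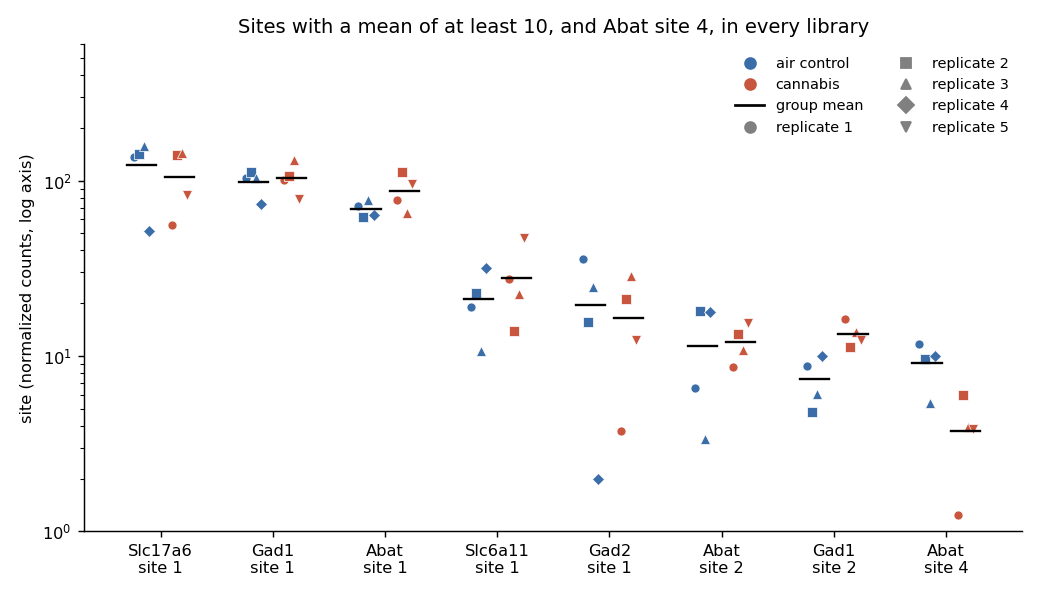
Normalized counts on a log axis of the sites of Slc17a6, Gad1, Abat, Slc6a11 and Gad2 with a mean of at least 10, and of Abat site 4, with 1 point per library and a line at each group mean. The groups overlap at all of these sites except Gad1 site 2, where the 4 cannabis libraries lie above the 4 air controls.

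The site without overlap was the second site of Gad1. It had 8.77, 4.79, 6.04 and 9.93 normalized counts in air controls and 16.1, 11.3, 13.8 and 12.3 in cannabis-exposed rats, from 4 to 17 reads per library. All 4 cannabis values exceeded the highest control, the closest pair being 11.3 and 9.93. The log2 difference was 0.81 (95% interval -0.16 to 1.79, limma, unadjusted P = 0.0979, adjusted P = 1). No permutation P is given, since the site was singled out for its lack of overlap. As a share of the Gad1 reads the site took 6.88% ± 3.21 in air controls against 10.9% ± 2.37 after cannabis (SD, n = 4). These shares rest on the same reads, and they overlapped between the groups.

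The site with an unadjusted P under 0.05 was site 4 of Abat. It had 11.7, 9.58, 5.37 and 9.93 normalized counts in air controls and 1.24, 5.98, 3.94 and 3.84 in cannabis-exposed rats, from 56 reads in all and between 1 and 16 per library. Cannabis replicate 2 lay above air control replicate 3, so the groups overlapped. The means were 9.14 ± 2.68 and 3.75 ± 1.94 (SD, n = 4), with a log2 difference of -1.16 (95% interval -2.27 to -0.05, limma, unadjusted P = 0.0411, adjusted P = 1, exact permutation P = 0.0571). The unadjusted P was 0.0747 in edgeR, 0.0781 in DESeq2 and 0.080 in limma with the replicate block, and with a pseudocount of 5 the difference was -0.70 (limma, unadjusted P = 0.0368). With any 1 library left out it lay from -1.38 to -0.84, and its unadjusted P stayed under 0.05 only without air control replicate 3 or cannabis replicate 2. Without air control replicate 4 and cannabis replicate 1 together it was -0.79 (unadjusted P = 0.141 in limma). The site held 7.20% ± 1.55 of the Abat reads in air controls and 2.74% ± 1.28 in cannabis-exposed rats. These shares rest on the same reads and did not overlap, against 2.04% of all site shares without overlap. They were examined because the site had an unadjusted P under 0.05, so their lack of overlap is no separate support. The first site of Abat, with most of the reads, had 68.7 ± 7.05 and 87.4 ± 20.6 normalized counts (SD, n = 4), a log2 difference of 0.32 (limma, unadjusted P = 0.356).

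Whether exposure shifted the use of sites within a gene was asked with the limma site-usage test, over sites with a mean of at least 10 in genes with several such sites. Only 4 sites of the 7 genes entered, 2 of Gad1 and 2 of Abat. None of the 4 had an unadjusted P under 0.05 in that test, against 2.35% of the sites tested, and the smallest adjusted P was 1. For Gad1 the group difference at the second site exceeded that at the first by 0.74 on the log2 scale (limma, unadjusted P = 0.116). Without air control replicate 4 it was 1.01 (limma, unadjusted P = 0.0387). Site 4 of Abat was too low to enter.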

How the data were processed

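WTTS-Seq libraries were made from hypothalamic RNA of individual samples, each taken here as 1 rat. The methods give more rats per group for this cohort than the 4 libraries per group described here. The authors sequenced them on an Ion Torrent instrument, filtered and trimmed the reads, mapped them with TMAP to Rnor_6.0, clustered read starts into strand-specific sites with at least 16 reads, named sites with Cuffcompare and divided counts by DESeq2 size factors. The deposited values are therefore a signal per site, the normalized count. Every value was a whole multiple of the worth of 1 read within 0.1 of a read, so reads were recovered. Libraries held 1159811 to 3706778 reads, and precision is limited by counting at low sites.

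Gene totals were sums over sites with a symbol. Log2(value + 1) was fitted with limma 3.58.1 (eBayes with trend) in R 4.3.3 over all 8 libraries, without covariates, with Benjamini-Hochberg adjustment over all features, and site usage with its diffSplice. Exact permutation tests used scipy 1.17.1. Alternatives were equal totals, a filter at a mean of 10, pseudocounts of 0.5 and 5, a replicate block, edgeR 4.0.16 and DESeq2 1.42.0 on recovered reads, and leaving out each replicate. Scripts were tested on simulated data.

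The genes and lists were chosen with earlier results of these data known. Named were all 7 genes, their top sites, sites with a mean of at least 10 or an unadjusted P under 0.05, the 4 most abundant other pathway genes (some listed genes are not reported here) and any with an unadjusted P under 0.05, and the 3 genes most like Slc32a1 and Slc17a6. Summed marker lists for oligodendrocytes (38180 to 52170 in air controls, 31920 to 48280 in cannabis-exposed rats), microglia (473 to 632, 493 to 638), thalamus (238 to 281, 250 to 339) and striatum (406 to 652, 388 to 738) overlapped between groups. P-values measure the spread between rats.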

Additional observations from a re-analysis of the deposited data

How the results depend on the processing

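Of the 35 sites, 1 passed an unadjusted P under 0.05, and 0 passed with the 8 sites of mean at least 10, with the replicate block, with DESeq2, or without air control replicate 4 and cannabis replicate 1 together (chosen after seeing the data). EdgeR also passed 1, site 4 of Gad2 and not that of Abat. Leaving out single replicates gave 0 to 2 sites, 0 to 0 gene totals, 0 to 2 sites in the usage test (2, both of Gad1, without air control replicate 4) and 0 to 2 other pathway genes (2, Slc1a3 among them, without air control replicate 3, and 1 without air control replicate 2, cannabis replicate 1 or cannabis replicate 3). Abat site 4 stayed under 0.05 without air control replicate 3 or cannabis replicate 2 and missed it in the other 6. Log2 differences ran from 0.03 to 0.29 for Gad1, -0.55 to 0.18 for Gad2, -0.071 to 0.40 for Slc32a1, -0.10 to 0.34 for Slc6a11 (also -0.08), 0.02 to 0.20 for Abat, -0.57 to 0.11 for Slc17a6, 0.35 to 0.76 for Slc17a8 and -1.38 to -0.84 for Abat site 4. No other setting turned a sign of the 7 totals.

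Replicate numbers did not pair the samples: deviations of same-numbered libraries correlated at -0.24, 0.09 and -0.07. With the replicate block no gene total passed either, and Abat site 4 was at -1.16 and no longer under 0.05. Over all 98356 sites 2981 had an unadjusted P under 0.05, against 1887 with the block, 1829 in DESeq2 and 459 with the filter. Over all gene totals 433 did, against 243 with the block, 250 with the filter and 753 without cannabis replicate 1. A mean of at least 20 left no site of the 7 genes in the usage test. The cause of these shifts was not tested. Slc17a8 had 49 reads in all, and 29 of the 35 sites fewer than 100.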
